A study of Homo sapiens with 6 samples.

Results

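The 43 genes described here encode the proteins that copy the genome in S phase, together with the enzymes that supply deoxynucleotides and the regulators that start the programme. They were chosen by gene symbol, as a fixed list in 7 roles, from a count table of 29804 symbols, and the rule uses no measured value. The licensing genes were ORC1, ORC6, CDC6, CDT1 and MCM2 to MCM7, and the helicase activation genes were MCM10, CDC45 and GINS1 to GINS4. POLA1, POLA2, PRIM1, PRIM2, POLE, POLE2, POLD1 and POLD3 encode polymerase and primase subunits. PCNA, RFC2 to RFC5 and RPA1 to RPA3 encode the sliding clamp, its loader and the single-strand binding protein. FEN1 and LIG1 join Okazaki fragments, RRM1, RRM2, TYMS, TK1 and DUT supply nucleotides, and E2F1, E2F2, CCNE1 and CCNE2 are regulators. All 43 passed the filter on low counts that left 14672 genes for testing, so none was lost to low expression. The genes lie on 19 chromosomes, with at most 4 on any one of them.

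RNA came from 22Rv1, an established human prostate carcinoma epithelial cell line that has its genotype given as WT in the labels. WT cells were untreated and were harvested at week 0. AM (age matched) cells were grown for 6 weeks without drug, in parallel with the 6WP cells, which received 1 µg/ml of phleomycin every week day for 6 weeks. Phleomycin is a radiomimetic glycopeptide that breaks both strands of DNA. By the study's methods each dose was brief and was followed by a wash and fresh medium. AM and 6WP cells shared the weeks in culture and differed in the drug. The methods do not say whether AM cells had the same washes and changes of medium. Effects of the drug and of its handling therefore cannot be told apart. WT cells differed from AM cells in culture time. WT and AM cells were also separate harvests, and effects of culture time and of harvest cannot be told apart. Each group had 2 libraries, which the labels call biological replicates. Nothing says whether they came from cultures kept apart for the whole 6 weeks, so the p-values measure the spread between these libraries.

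Replication is prepared in G1, when the origin recognition complex, CDC6 and CDT1 load the MCM2 to MCM7 helicase onto DNA. At the start of S phase CDC45 and the GINS complex turn the loaded MCM ring into a working helicase, and polymerase alpha with primase, then polymerases epsilon and delta, copy the strands behind it. PCNA holds the polymerases on DNA and is put there by replication factor C. Many of these genes are transcribed late in G1 by E2F factors, which the retinoblastoma protein holds back until cyclin D and cyclin E kinases phosphorylate it. Such transcripts are low in resting cells and are widely used as signs of cells that are entering or passing S phase. In bulk RNA a smaller share of cells in S phase and less of a transcript per cell cannot be told apart.

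The promoters are shown first, since their letters were not used to choose the genes. RefSeq promoters were matched for 36 of the 43 genes. MCM4, MCM5, GINS4, POLD3, RPA2, RPA3 and CCNE2 were not matched. In the window from 250 bases before to 50 bases after the start, an E2F element (TTTCCCGC, TTTGGCGC, TTTCGCGC or TTTGCCGC on either strand, overlaps allowed) was found in 19 of the 36 promoters, or 52.8%. The same letters were found in 5.23% of the 10384 promoters of tested genes and in 3.33% of all 27305 promoters of the same length. A CCAAT box (CCAAT on either strand) was found in 19 of the 36 (52.8%), against 36.4% of tested genes and 35.7% of all promoters. The CHR element (TTTGAA or TTCGAA on either strand), which is known from genes of G2 and mitosis, was found in 2 of the 36 (5.56%), against 10.6% of tested genes. A match describes letters in a window and is not evidence of binding.

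The 200 bases before the RefSeq start are printed below for 7 genes, 5′ to 3′ on the gene's own strand (GRCh38.p14), with E2F elements in capitals. MCM6, PCNA, POLA2, TYMS and E2F1 are shown as genes that were lower in 6WP than in AM cells and hold the element. CDT1 is shown because it holds the element and did not pass that test, and RRM2 because it differed by almost as much as any gene and holds no such letters but has 3 CCAAT boxes.
MCM6 (chr2:135876444-135876643, minus strand): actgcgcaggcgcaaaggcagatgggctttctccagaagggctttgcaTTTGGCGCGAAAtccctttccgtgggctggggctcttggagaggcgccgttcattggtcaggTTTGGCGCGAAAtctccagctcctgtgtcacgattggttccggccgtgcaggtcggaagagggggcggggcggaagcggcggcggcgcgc
PCNA (chr20:5126623-5126822, minus strand): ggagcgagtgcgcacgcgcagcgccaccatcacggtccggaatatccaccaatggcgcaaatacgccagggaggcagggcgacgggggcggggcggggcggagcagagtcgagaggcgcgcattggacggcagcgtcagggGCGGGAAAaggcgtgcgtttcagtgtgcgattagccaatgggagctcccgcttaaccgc
POLA2 (chr11:65261762-65261961, plus strand): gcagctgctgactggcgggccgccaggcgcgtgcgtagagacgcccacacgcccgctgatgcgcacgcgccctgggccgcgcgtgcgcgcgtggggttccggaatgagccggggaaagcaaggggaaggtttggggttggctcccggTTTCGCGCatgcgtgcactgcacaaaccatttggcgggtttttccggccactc
TYMS (chr18:657453-657652, plus strand): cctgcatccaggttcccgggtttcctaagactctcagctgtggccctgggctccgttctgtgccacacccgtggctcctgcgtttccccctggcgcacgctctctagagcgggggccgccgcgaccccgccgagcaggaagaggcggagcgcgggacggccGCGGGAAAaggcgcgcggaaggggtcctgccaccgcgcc
E2F1 (chr20:33686386-33686585, minus strand): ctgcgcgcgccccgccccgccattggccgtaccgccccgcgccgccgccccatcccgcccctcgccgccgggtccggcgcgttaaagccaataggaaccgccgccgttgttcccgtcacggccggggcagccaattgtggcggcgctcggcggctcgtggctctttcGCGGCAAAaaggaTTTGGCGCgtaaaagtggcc
CDT1 (chr16:88803589-88803788, plus strand): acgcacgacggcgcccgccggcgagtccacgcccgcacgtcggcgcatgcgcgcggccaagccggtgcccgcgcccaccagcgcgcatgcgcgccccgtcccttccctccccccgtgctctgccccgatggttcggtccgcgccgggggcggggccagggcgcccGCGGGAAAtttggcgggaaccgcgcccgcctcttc
RRM2 (chr2:10122539-10122738, plus strand): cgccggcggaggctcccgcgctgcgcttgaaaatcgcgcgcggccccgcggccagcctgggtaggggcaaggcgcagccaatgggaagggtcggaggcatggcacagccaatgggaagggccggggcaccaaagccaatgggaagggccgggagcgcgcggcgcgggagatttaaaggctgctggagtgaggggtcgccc

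Genes with and without the element had similar medians. The median log2 fold change from AM to 6WP cells was -1.07 over the 19 genes with an E2F element (from -1.96 to -0.15) and -1.0 over the 17 without (from -1.89 to -0.43). No test was run on this split.

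Library totals ranged from 21222201 to 35311945 counts, so that a floor of 3 counts lay between 0.0850 and 0.141 CPM (a count relative to its library total, with TMM factors for the gene levels), which covers counting error only. The lowest group mean among the 43 genes was 7.31 CPM and the highest 849 CPM, both far above that floor. All 10 luminal prostate markers that were checked, among them KLK3 and EPCAM, were above 20 CPM in every library. Their levels differed between groups, with 5 of the 10 lower and 1 higher in AM than in WT cells (9.93% and 7.74% over all genes) and 3 higher and 1 lower in 6WP than in AM cells (11.7% and 9.68%). TMPRSS2, which gave the largest of these differences, was at 91.0 and 95.7 CPM in WT, 24.5 and 32.4 in AM and 42.0 and 116 in 6WP libraries. The part of these changes in the differences of the replication genes was not tested. Of 14 markers of blood, endothelial, stromal, muscle and basal cells, 11 stayed under 1 CPM in all libraries and 5, including PTPRC and KRT5, were at 0 in all of them. The summed level of these markers was between 5.04 and 7.55 CPM, with overlapping ranges between the groups. One 6WP library stood apart from the other for many genes. Replicate 2 of 6WP was the lower for most of the genes described here. The chi-square per degree of freedom between replicates over all genes was 67.4 in 6WP cells, against 5.85 in WT and 9.46 in AM cells, where counting error alone gives about 1. Counts of calls are therefore also given without each 6WP library, as are the genes whose difference from AM moved by over 1.5 times or changed its call without one.

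Levels of these genes were highest in AM and lowest in 6WP cells. Their summed level was 4964 and 4552 CPM in WT, 7316 and 7778 CPM in AM, and 4271 and 2898 CPM in 6WP libraries. The 6WP mean of 3585 ± 971 CPM (SD, n = 2) was 47.5% of the AM mean of 7547 ± 327 CPM (SD, n = 2). Both 6WP libraries lay below both WT libraries in this sum, and both AM libraries lay above every other. The share of all counts taken by the 43 genes was between 0.467% and 0.748% in the untreated cells and 0.437% and 0.285% in the 6WP cells. The order of the group means was AM, then WT, then 6WP in 42 of the 43 genes, and CDT1 was the exception with WT lowest. An AM library held the highest value of the 6 for every gene. These counts were not taken over all genes tested.

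**Figure D1:**
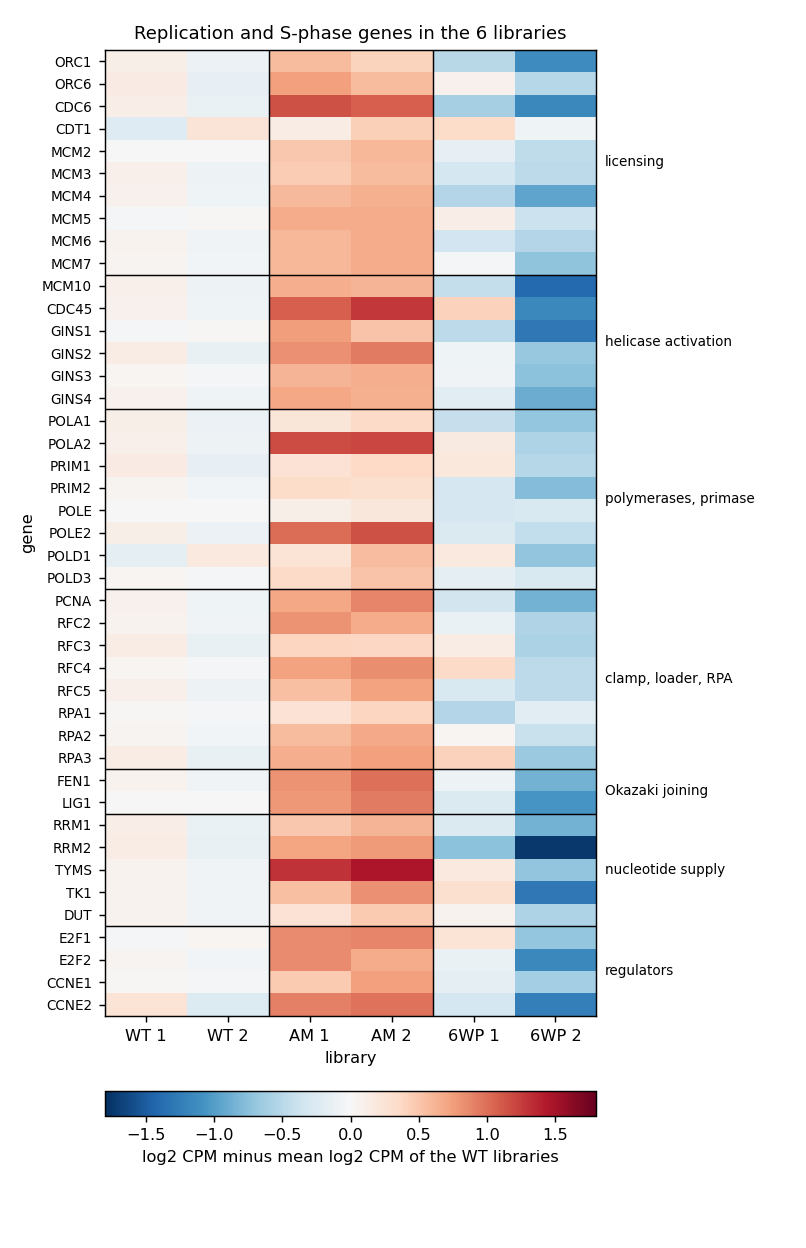
Heat map of the 43 genes in the 6 libraries. Rows are genes grouped by role, columns are libraries, and colour is log2 CPM minus the mean log2 CPM of the WT libraries. Medians over the genes were 0.61 and 0.66 for AM and -0.15 and -0.69 for 6WP libraries. Replicate 2 of 6WP is the darkest blue column.

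Against AM cells, which shared the culture time, 36 of the 43 genes had lower levels in the 6WP group, with an adjusted p under 0.05 (edgeR's quasi-likelihood test, Benjamini-Hochberg over 14672 genes). Over all genes tested, 9.68% were lower by the same rule. None of the 43 was higher, whereas 11.7% of all genes were. The fold change was negative for all 43 genes, with a median of -1.003 on the log2 scale (from -1.96 to -0.15), against a median of 0.05 over all genes tested. In 23 of the 43 genes the log2 fold change was beyond -1, as it was in 386 of all 14672 genes tested. The 2 libraries of 6WP lay below both AM libraries in 42 genes, where 28.5% of all genes did so. An unadjusted p under 0.05 was found for 40 of the 43 genes, and for 5449 of all 14672 genes tested. The 7 genes that did not pass were CDT1, PRIM1, POLD1, RFC3, RPA3, TK1 and DUT. Without AM replicate 1 or AM replicate 2 the number of genes called fell to 6 and 3, while the median log2 fold change was -1.10 and -0.97, and the lone AM library was then assumed to vary like the other groups. Over all genes the share called lower in these fits was 0.659% and 0.414%. Without 6WP replicate 1, 42 genes were lower with a median of -1.36, where 22.4% of all genes were. Without 6WP replicate 2, 39 were lower with a median of -0.84, where 17.5% of all genes were. CDC6, MCM6 and POLE2 were called under each of the 15 alternatives run.

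In AM cells, grown for 6 weeks without drug, 18 of the 43 genes were higher than in WT cells by the same test, and none was lower. The background was 7.74% of all genes higher. All 43 fold changes were positive, with a median of 0.63 on the log2 scale (from 0.16 to 1.38), against -0.002 over all genes tested. In 42 genes both AM libraries lay above both WT libraries, where 36.9% of all genes did. All 18 of these genes were also lower in 6WP than in AM cells, and the other 18 of the 36 passed in that comparison only. The comparisons share the AM libraries, so these counts are not independent of each other. Leaving out any WT or AM library left 0 genes called here, where at most 0.211% of all genes were called higher. Without either 6WP library 41 were called higher, where 21.6% and 23.2% of all genes were without replicates 1 and 2.

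Against WT cells, 1 of the 43 genes, MCM4, was lower in 6WP cells (adjusted p = 0.046), and none was higher. Over all genes tested, 1.37% were lower and 1.63% higher by this rule. The median log2 fold change was -0.35 (from -1.16 to 0.12), and 42 of the 43 values were negative. An unadjusted p under 0.05 was found for 20 of the 43 genes, and for 3283 of all 14672 genes tested. Both 6WP libraries lay below both WT libraries in 26 genes, where 25.2% of all genes did. This comparison turned on single libraries. Without 6WP replicate 1, 40 genes were lower with a median of -0.71, where 14% of all genes were lower in the same fit. Without 6WP replicate 2, 12 were lower and 3 higher with a median of -0.18, where 13.5% of all genes were lower and 12.4% higher. Without any one WT or AM library 0 were called.

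**Figure D2:**
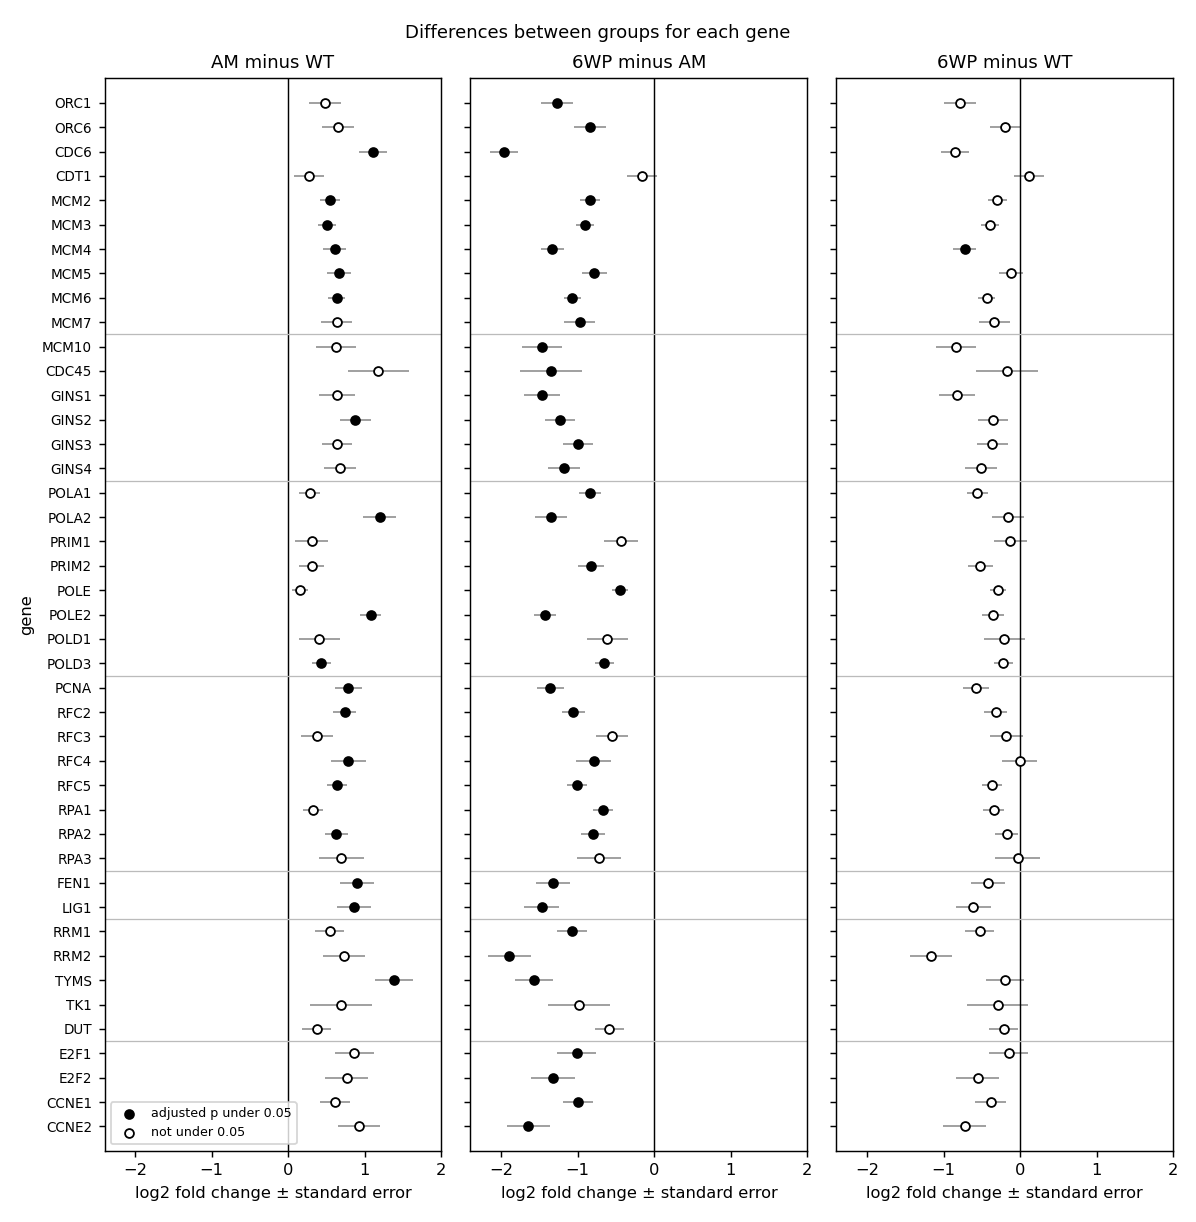
Log2 fold change of each gene with its standard error in the 3 comparisons, from the model fitted to all 6 libraries. Filled points have an adjusted p under 0.05. All points of AM minus WT lie above 0 and 18 are filled, all points of 6WP minus AM lie below 0 and 36 are filled, and in 6WP minus WT only MCM4 is filled.

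The licensing genes held both the largest and the smallest difference between 6WP and AM cells. Of the 10, 9 were lower in 6WP than in AM cells and 6 were higher in AM than in WT cells. CDC6, the ATPase that brings the MCM ring to the origin recognition complex, is on chromosome 17 (GRCh38, 40287879 to 40304657). It was measured at 98.4 and 84.0 CPM in WT, 202 and 192 in AM and 60.2 and 40.8 in 6WP libraries. The groups did not overlap, and 6WP cells held 25.7% of the AM level. The log2 fold change against AM was -1.96 (SE 0.19, adjusted p = 0.00202), where SE is the standard error and the adjusted p is that of edgeR's quasi-likelihood test throughout, and AM cells had been higher than WT cells by 1.11 (SE 0.18, adjusted p = 0.00876). ORC1, the largest subunit of the origin recognition complex and one that is made and destroyed with the cell cycle, was at 25.7 and 22.2 CPM in WT, 35.4 and 31.5 in AM and 16.9 and 10.9 in 6WP libraries. Its log2 fold change against AM was -1.27 (SE 0.21, adjusted p = 0.00763). Both 6WP libraries were below every untreated library. ORC6 had -0.84 (SE 0.20, adjusted p = 0.0252) against AM, with 6WP replicate 1 at 27.4 CPM inside the WT range of 23.3 to 28.7 CPM.

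The 6 subunits of the MCM ring all passed against AM cells, within a narrow band of log2 fold changes (from -1.33 to -0.78). MCM6 held 126 and 116 CPM in WT, 184 and 192 in AM and 95.1 and 84.1 in 6WP libraries. The 6WP libraries were close to each other for this gene, and the log2 fold change against AM was -1.07 (SE 0.11, adjusted p = 0.0023). MCM4 was at 434 and 388 CPM in WT, 613 and 639.9 in AM and 285 and 213 in 6WP libraries. It gave the largest fall of the ring, -1.33 (SE 0.15, adjusted p = 0.00272) against AM, and the only one that passed against WT, -0.72 (SE 0.15, adjusted p = 0.0464). MCM7 was the most abundant gene of the 43, at 569 and 528 CPM in WT, 829 and 869.6 in AM and 535 and 331 in 6WP libraries. Its 6WP replicate 1 was inside the WT range, and its difference from AM cells was -0.97 (SE 0.20, adjusted p = 0.0158). MCM2 was measured at 311 and 307 CPM in WT, 435 and 466 in AM and 278 and 225 in 6WP libraries, and MCM3 at 131 and 115, 169 and 182 and 99.1 and 88.6 CPM in the same order. Their log2 fold changes against AM were -0.84 (SE 0.13, adjusted p = 0.00619) and -0.90 (SE 0.12, adjusted p = 0.0042). Neither gene overlapped between any of the 3 groups. MCM5, with 6WP libraries at 122 and 86.2 CPM on either side of the WT libraries at 111 and 114, had the smallest difference of the ring, -0.78 (SE 0.16, adjusted p = 0.0146).

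Per kilobase of merged exon, the ring's subunits were far from equal. In WT cells MCM7 had 111 CPM per kilobase and MCM2 65.5, against 41.7 for MCM4, 33.8 for MCM3, 29.4 for MCM6 and 15.5 for MCM5. These levels rest on merged GENCODE exons, which lengthen genes with many transcript ends. The order MCM7, MCM2, MCM4, MCM3, MCM6, MCM5 in WT cells was also the order in AM cells. In 6WP cells MCM3 (25.8 CPM per kilobase) and MCM4 (25.3) came next to each other in reversed order, a gap smaller than the spread of either.

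CDT1, the partner of CDC6 in loading the MCM ring, did not follow the others. Its levels were 56.0 and 77.1 CPM in WT, 72.4 and 88.5 in AM and 82.6 and 62.1 in 6WP libraries, and all 3 groups overlapped. The log2 fold change was -0.15 (SE 0.20, adjusted p = 0.6) against AM and 0.12 (SE 0.20, adjusted p = 0.763) against WT cells. Its promoter, printed above, holds an E2F element, as those of MCM6 and PCNA do. With single libraries left out, the first ranged from -0.38 to 0.0041 and the second from -0.12 to 0.37.

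**Figure D3:**
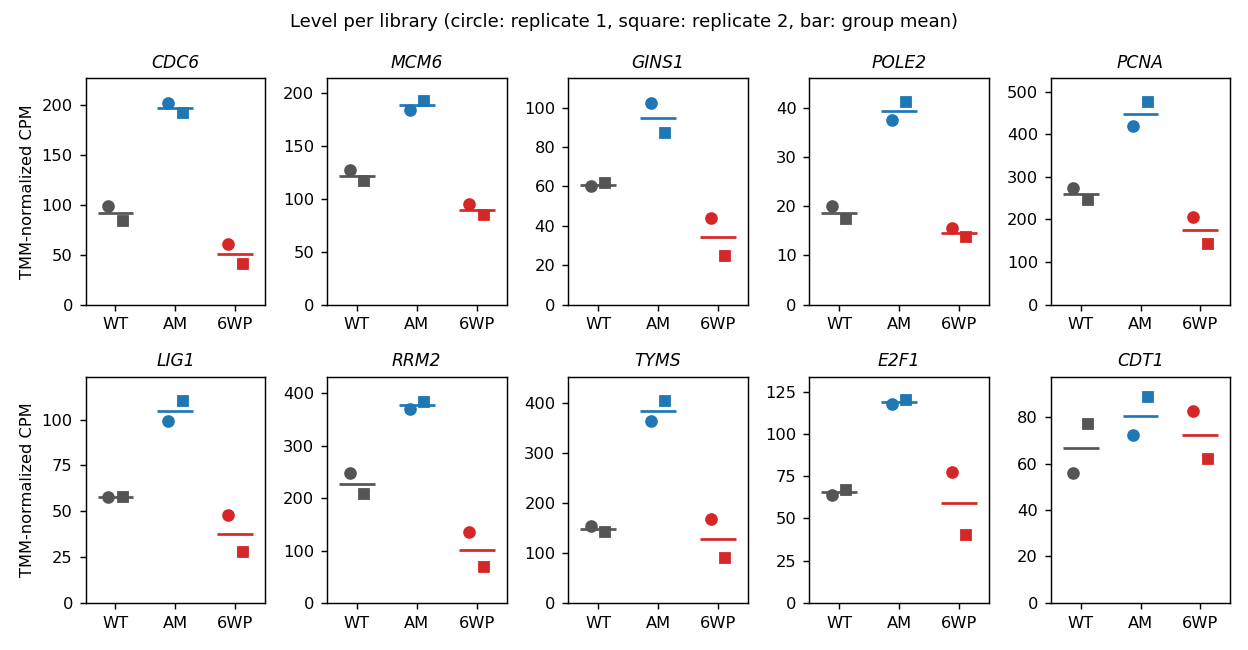
TMM-normalized CPM of 10 genes in each library, with axes that start at 0. Circles are replicate 1, squares replicate 2 and bars group means. In 9 of the 10 the AM libraries are highest and do not overlap the others, and CDT1 overlaps between all groups.

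All 6 genes of helicase activation were lower in 6WP than in AM cells, with log2 fold changes from -1.47 to -0.99. MCM10, which helps to start the helicase, was at 52.2 and 45.8 CPM in WT, 76.9 and 74.6 in AM and 36.3 and 18.6 in 6WP libraries. Its log2 fold change against AM was -1.47 (SE 0.27, adjusted p = 0.0103). GINS1 was at 60.1 and 61.7, 102 and 87.0 and 43.8 and 24.9 CPM in the same order, with -1.46 (SE 0.24, adjusted p = 0.00728). For both genes 6WP replicate 1 was already below both WT libraries, and replicate 2 was lower still. The fold change from WT to AM cells was positive for all 6, and GINS2 was the 1 that passed, at 0.88 (SE 0.20, adjusted p = 0.0232). It stood at 53.9 and 44.7 CPM in WT, 86.8 and 94.3 in AM and 46.7 and 30.5 in 6WP libraries, -1.23 (SE 0.20, adjusted p = 0.00728) against AM. GINS4 was at 31.0 and 27.8 CPM in WT, 47.7 and 46.0 in AM and 25.5 and 15.8 in 6WP libraries, -1.18 (SE 0.21, adjusted p = 0.00961) against AM. GINS3 gave -0.99 (SE 0.20, adjusted p = 0.0136), so that the 4 subunits of the GINS complex lay between -1.46 and -0.99. CDC45, the helicase partner of GINS, had 50.4 and 44.9 CPM in WT, 101 and 115 in AM and 63.3 and 21.3 in 6WP libraries. Its 6WP libraries fell on either side of WT, and the test against AM passed narrowly, -1.35 (SE 0.40, adjusted p = 0.0479). Without 6WP replicate 1 the log2 fold change was -2.34, without replicate 2 it was -0.80, and 9 of the 15 alternatives lost the call. From WT to AM cells CDC45 had the highest value of the role, 1.18 (SE 0.40, adjusted p = 0.0781), which did not pass.

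The polymerases gave a wide range of log2 fold changes between 6WP and AM cells, from -1.43 to -0.43. Of the 8 genes, 6 were lower in 6WP than in AM cells and 3 were higher in AM than in WT cells. The second subunits of epsilon and alpha moved most of the 8 genes. POLE2, of polymerase epsilon, was at 20.001 and 17.4 CPM in WT, 37.5 and 41.2 in AM and 15.5 and 13.7 in 6WP libraries. It rose by 1.07 (SE 0.14, adjusted p = 0.00484) from WT to AM and had -1.43 (SE 0.14, adjusted p = 0.00203) for 6WP against AM. POLA2, of polymerase alpha, was at 52.5 and 46.2 CPM in WT, 112 and 114 in AM and 55.1 and 33.4 in 6WP libraries. Its rise in AM cells was 1.19 (SE 0.21, adjusted p = 0.0114) and its difference between 6WP and AM cells -1.35 (SE 0.21, adjusted p = 0.00692). The AM libraries of both genes were well above all others, and for POLA2 the 6WP and WT libraries overlapped. By contrast POLE, the catalytic subunit of epsilon, was at 104 and 103 CPM in WT, 111 and 119 in AM and 83.9 and 85.2 in 6WP libraries. The groups were apart but close, with -0.45 (SE 0.10, adjusted p = 0.0205) against AM and 0.16 (SE 0.10, adjusted p = 0.303) for AM against WT. POLA1, the catalytic subunit of alpha, was at 53.8 and 46.7 CPM in WT, 58.2 and 63.9 in AM and 37.5 and 30.8 in 6WP libraries, -0.84 (SE 0.14, adjusted p = 0.00805) against AM. POLD3, an accessory subunit of delta, was at 31.9 and 30.1, 39.3 and 44.4 and 27.5 and 25.7 CPM in that order of groups, with -0.65 (SE 0.12, adjusted p = 0.0114) against AM.

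For epsilon and alpha the difference between catalytic and second subunits can also be read within a complex. Between 6WP and AM the log2 fold change was -1.43 for POLE2 and -0.45 for POLE, and -1.35 for POLA2 and -0.84 for POLA1. In delta POLD3 (-0.65) and POLD1 (-0.61) were close to each other. No test of these differences between genes was run. The primase subunits gave -0.83 (SE 0.16, adjusted p = 0.0136) for PRIM2, which passed, and -0.43 (SE 0.22, adjusted p = 0.187) for PRIM1, which did not. POLD1, the catalytic subunit of delta, had AM libraries at 47.2 and 58.4 CPM and 6WP libraries at 44.8 and 24.3 CPM and did not pass either, -0.61 (SE 0.27, adjusted p = 0.136). Without 6WP replicate 1 both passed, PRIM1 at -0.84 and POLD1 at -1.12, and without 6WP replicate 2 neither did, at -0.15 and -0.27.

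In the clamp and loader group 6 of 8 genes were lower in 6WP than in AM cells, and 5 of 8 were higher in AM than in WT cells. PCNA, the sliding clamp, is on chromosome 20 (GRCh38, 5114953 to 5126626). It was measured at 275 and 245 CPM in WT, 419 and 475 in AM and 206 and 143 in 6WP libraries. No group overlapped another. The log2 fold change against AM was -1.36 (SE 0.18, adjusted p = 0.00397), that of AM against WT 0.78 (SE 0.17, adjusted p = 0.0221). Per kilobase PCNA had the highest level of all 43 genes, with 185 CPM for WT, 319 for AM and 124 for 6WP cells. Of the clamp loader, RFC2 stood at 116 and 106 CPM in WT, 193 and 176 in AM and 102 and 76.0 in 6WP libraries, and RFC5 at 80.1 and 70.3, 109 and 124 and 62.1 and 54.2 CPM. Against AM they gave -1.05 (SE 0.15, adjusted p = 0.00546) and -1.0 (SE 0.13, adjusted p = 0.00397). Both genes separated the 3 groups. RFC4 passed narrowly against AM, -0.79 (SE 0.23, adjusted p = 0.0428), and RFC3 did not, -0.55 (SE 0.21, adjusted p = 0.0998). Without 6WP replicates 1 and 2 RFC4 was at -1.25 and -0.47, with the call lost in 7 of the 15 alternatives, and RFC3 was at -0.95, which passed, and -0.27, which did not. In the full set of libraries 6WP replicate 1 of either gene reached or passed a WT library.

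The single-strand binding protein RPA, which coats unwound DNA, gave smaller values than the clamp, a difference between genes that was not tested. RPA2 was at 84.2 and 78.1 CPM in WT, 120.2 and 130.1 in AM and 82.7 and 61.1 in 6WP libraries, -0.80 (SE 0.15, adjusted p = 0.0121) against AM. RPA1 had -0.67 (SE 0.13, adjusted p = 0.0133). It was one of 2 genes, with POLE, in which 6WP replicate 2 exceeded replicate 1 (152 and 192 CPM in replicates 1 and 2). RPA3 had 6WP libraries at 99.9 and 47.2 CPM, on both sides of WT at 81.8 and 68.2, and did not pass, -0.72 (SE 0.29, adjusted p = 0.115). Without 6WP replicates 1 and 2 it passed, at -1.36 and -0.31.

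Both genes that finish Okazaki fragments passed in both comparisons with AM cells. FEN1, the nuclease that trims the flap left by primer displacement, was at 128 and 117 CPM in WT, 214 and 243 in AM and 115 and 67.8 in 6WP libraries. LIG1, the ligase that seals the nick, was at 57.6 and 57.9, 99.3 and 110.1 and 48.0 and 27.6 CPM in the same order. Between 6WP and AM the log2 fold changes were -1.32 (SE 0.22, adjusted p = 0.00834) and -1.47 (SE 0.23, adjusted p = 0.00651), and AM cells had risen over WT by 0.90 (SE 0.22, adjusted p = 0.0304) and 0.86 (SE 0.22, adjusted p = 0.036). Every 6WP library was below every WT library for both genes.

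Of the 5 genes of nucleotide supply, 3 were lower in 6WP than in AM cells. RRM2, the cell-cycle regulated small subunit of ribonucleotide reductase, was at 248 and 208 CPM in WT, 370.4 and 384 in AM and 135 and 67.9 in 6WP libraries. 6WP cells held 27.0% of the AM level, and the log2 fold change was -1.89 (SE 0.28, adjusted p = 0.00574). Against WT it was the lowest value of the 43 genes, -1.16 (SE 0.27, adjusted p = 0.065), which did not pass. RRM1, the large subunit, was at 342 and 292 CPM in WT, 441 and 482 in AM and 265 and 175 in 6WP libraries, with -1.07 (SE 0.19, adjusted p = 0.00981) against AM. TYMS, which makes thymidylate, is on chromosome 18 (GRCh38, 657653 to 673578) and gave the largest difference between AM and WT cells. It went from 154 and 141 CPM in the WT libraries to 363 and 403 in the AM libraries, 1.38 (SE 0.25, adjusted p = 0.0118). The 6WP libraries were at 167 and 90.4 CPM, on both sides of WT, with -1.57 (SE 0.25, adjusted p = 0.00703) against AM. TK1, the salvage kinase for thymidine, was at 147 and 49.6 CPM in the 6WP libraries, a log2 difference of -1.57 from replicate 1 to replicate 2. It did not pass against AM at 175 and 214 CPM, -0.98 (SE 0.40, adjusted p = 0.119). DUT, which removes dUTP, did not pass either, -0.59 (SE 0.19, adjusted p = 0.0637). Without 6WP replicates 1 and 2 both genes passed, TK1 at -1.97 and -0.43 and DUT at -0.94 and -0.34.

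All 4 regulators were lower in 6WP than in AM cells, and none passed between AM and WT. CCNE2, one of the cyclins E that drive entry into S phase, was at 66.2 and 46.9 CPM in WT, 105 and 109 in AM and 44.8 and 23.7 in 6WP libraries, -1.64 (SE 0.28, adjusted p = 0.00869) against AM. CCNE1, its paralogue, was the least abundant of the 43 genes, at 9.69 and 9.42 CPM in WT, 13.2 and 16.0 in AM and 8.43 and 6.2 in 6WP libraries, -1.0 (SE 0.20, adjusted p = 0.013) against AM. E2F1, an activator whose own promoter holds the E2F elements printed above, was at 63.6 and 67.0 CPM in WT, 118 and 119.8 in AM and 77.6 and 40.3 in 6WP libraries. The WT libraries lay between the 6WP libraries, and the difference from AM was -1.01 (SE 0.26, adjusted p = 0.028). It was -1.56 without 6WP replicate 1 and -0.65 without 6WP replicate 2, and 5 of the 15 alternatives lost the call. E2F2 had -1.32 (SE 0.28, adjusted p = 0.0174) against AM. For AM against WT the adjusted p of the 4 regulators was between 0.052 and 0.093.

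The 2 libraries of 6WP cells carried different amounts of these transcripts. In 41 of the 43 genes replicate 2 was lower than replicate 1, with a median difference of -0.63 on the log2 scale (from -1.57 to 0.33). Over all genes tested the median absolute difference between these libraries was 0.28, and 50.6% of genes were lower in replicate 2. CDC45 and TK1 differed most. Between the WT libraries the median was -0.14 and between the AM libraries 0.10. Replicate 1 was below both WT libraries in 26 genes, above both in 13 and between them in 4, where 41.8% of all genes were below and 42.7% above. Replicate 2 was below both WT libraries in 42 genes, where 41.2% of all genes were. It was the lowest of the 6 libraries in 40, a count not taken over all genes. Against AM cells both libraries pointed the same way in nearly all genes. Replicate 1 was below both AM libraries in 42 of the 43 genes and replicate 2 in all 43. Of all 14672 genes tested, 5816 (39.6%) were below both AM libraries in replicate 1 and 6076 in replicate 2.

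Genes of G2 and mitosis moved with that difference between libraries. Their list of 25 genes, which holds cyclin B, PLK1, AURKA and other parts of the mitotic programme, had a median of 0.23 in 6WP replicate 1 and -1.0 in replicate 2, relative to the WT mean on the log2 scale. Their summed level was 3228 and 1377 CPM in these libraries, against 2965 and 2649 CPM in WT and 3886 and 3714 CPM in AM libraries. In replicate 1, 18 of the 25 mitotic genes were above both WT libraries and 3 below, whereas 13 of the 43 replication genes were above and 26 below. These are 72% and 12% of the mitotic and 30.2% and 60.5% of the replication genes, where 42.7% of all genes were above and 41.8% below. All 25 mitotic genes were lower in replicate 2 than in replicate 1. Between 6WP and AM cells, CCNA2 (-1.37, SE 0.35, adjusted p = 0.0302) and KIF11 (-0.98, SE 0.26, adjusted p = 0.0309) were lower and the other 23 did not pass, with a median of -0.66. The 2 genes are 8% of the list, close to the 9.68% of all genes that were lower. All 25 fold changes were negative, however, and both 6WP libraries lay below both AM libraries in 16 genes (28.5% over all genes). An unadjusted p under 0.05 by the same test was found for 11 of the 25, and for 5449 of all 14672 genes tested. The median standard error was 0.33 here, against 0.20 for the replication genes, so few calls do not show equal levels. From WT to AM cells all 25 fold changes were positive, with a median of 0.47, and both AM libraries lay above both WT libraries in 24 genes (36.9% over all genes). MKI67 was the 1 of them that passed, at 1.03 (SE 0.28, adjusted p = 0.0418). Without 6WP replicate 1 all 25 were lower in 6WP than in AM cells (22.4% over all genes), without 6WP replicate 2 it was 11 (17.5% over all genes), and without any WT or AM library it was 0. Between AM and WT cells the call of MKI67 was lost without any WT or AM library, and calls rose without either 6WP library, as they did over all genes. The part of the mitotic genes, or of the share of dividing cells, in the differences of the replication genes was not tested.

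**Figure D4:**
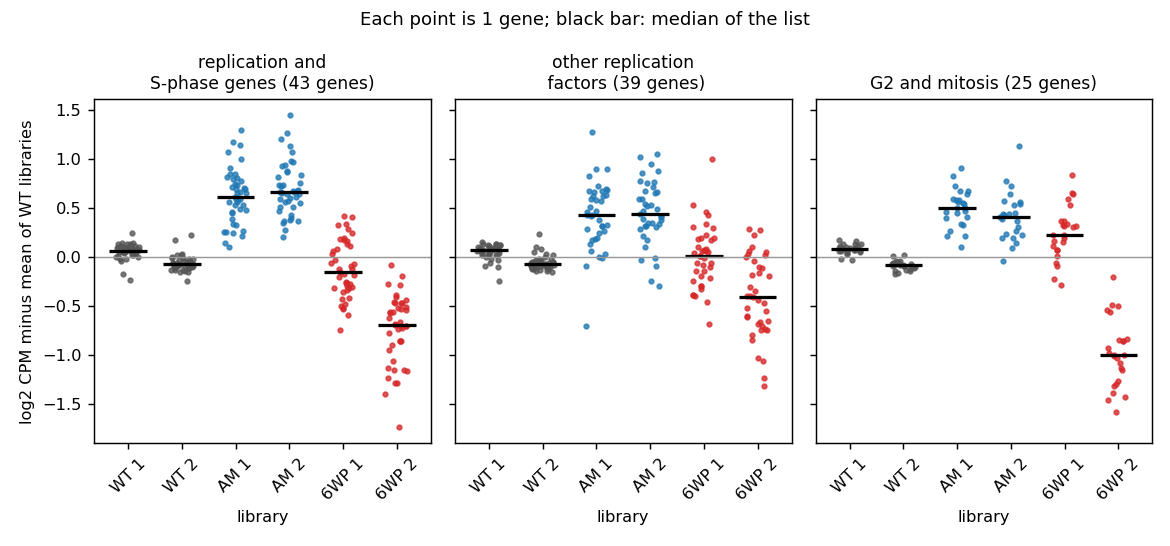
Log2 CPM minus the mean of the WT libraries for each gene of 3 lists in each library, with the median as a black bar. Replication and S-phase genes have medians of -0.15 and -0.69 in the 6WP libraries, other replication factors 0.02 and -0.41, and genes of G2 and mitosis 0.23 and -1.0.

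Other replication factors were mostly lower in 6WP than in AM cells as well. Of 39 tested, 24 were lower in 6WP than in AM cells (61.5%, against 9.68% of all genes) and 1 was higher (2.56%, against 11.7%), with a median log2 fold change of -0.69. TOPBP1, which helps to load CDC45, gave -0.85 (SE 0.10, adjusted p = 0.00354). DTL, which marks CDT1 for destruction, gave -1.21 (SE 0.15, adjusted p = 0.00363), and CLSPN, which passes the replication checkpoint signal to CHEK1, gave -1.75 (SE 0.26, adjusted p = 0.00577). The chromatin assembly subunits CHAF1B and CHAF1A, which place histones behind the fork, gave -1.08 (SE 0.16, adjusted p = 0.00581) and -0.76 (SE 0.12, adjusted p = 0.00672), and MCM8 gave -1.19 (SE 0.18, adjusted p = 0.00587). POLD4, a small subunit of polymerase delta, was the gene that was higher, 0.72 (SE 0.17, adjusted p = 0.0226). From WT to AM cells 11 of the 39 rose (28.2%, against 7.74% of all genes) and none fell, with CHAF1A (0.67, SE 0.12, adjusted p = 0.0117), DTL (0.72, SE 0.15, adjusted p = 0.0182), CLSPN (1.17, SE 0.25, adjusted p = 0.0213), DONSON (0.93, SE 0.21, adjusted p = 0.0248), TOP1 (0.43, SE 0.10, adjusted p = 0.0273) and TOPBP1 (0.42, SE 0.10, adjusted p = 0.0309) at the smallest p-values. None of the 39 passed between 6WP and WT cells by edgeR's quasi-likelihood test. An unadjusted p under 0.05 was found there for 11 of the 39, and for 3283 of all 14672 genes tested. The number called there was between 0 and 4 under settings that left out no single library, where 96 to 1492 of all genes were called. Most calls of this list between 6WP and AM cells were lost without either AM library, and fewer stood without either WT library. Calls of the list between AM and WT cells were lost without any WT or AM library. In all 3 comparisons more of the list was called without 6WP replicate 1 or 2, as over all genes. Relative to the WT mean, the list had medians of 0.02 and -0.41 in the 6WP libraries and 0.43 and 0.44 in the AM libraries.

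Of 19 genes of nucleotide synthesis beyond the 5 above, 9 were lower in 6WP than in AM cells (47.4%, against 9.68% of all genes), with a median of -0.36. The 2 that were higher are 10.5% of the list, close to the 11.7% of all genes. SAMHD1, which breaks dNTPs down, gave -0.95 (SE 0.12, adjusted p = 0.00379) and was also lower than in WT cells, -0.77 (SE 0.12, adjusted p = 0.0214). The latter was -0.81 without 6WP replicate 1 and -0.78 without 6WP replicate 2, and that call was lost without any WT or AM library and in a fit to only these groups. CTPS1 and PAICS, of CTP and purine synthesis, gave -0.70 (SE 0.12, adjusted p = 0.00979) and -0.63 (SE 0.12, adjusted p = 0.0112), and DCK, a salvage kinase, gave -0.72 (SE 0.17, adjusted p = 0.024). IMPDH2, of guanine nucleotide synthesis, was higher, 0.57 (SE 0.11, adjusted p = 0.0136), and so was DCTD at an adjusted p of 0.0293. From WT to AM cells CTPS1 (0.72, SE 0.12, adjusted p = 0.0103), ATIC and IMPDH1 rose and IMPDH2 fell (-0.41, SE 0.11, adjusted p = 0.0411), where 7.74% of all genes rose and 9.93% fell. These 4 calls were lost without any WT or AM library, where calls over all genes also became few. Most of the 11 calls between 6WP and AM cells were lost without either AM library, and fewer stood without either WT library. In both comparisons more of the list was called without either 6WP library, as over all genes.

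Of the E2F, RB and G1/S regulators, 24 of 25 were tested, and 9 were lower and 2 higher in 6WP than in AM cells, with a median of -0.30. The 9 are 37.5% of the list, against 9.68% of all genes, whereas the 2 are 8.33%, under the 11.7% of all genes. CCND3 gave -1.01 (SE 0.14, adjusted p = 0.00528), SKP2, which targets inhibitors of cyclin E kinase, gave -0.68 (SE 0.11, adjusted p = 0.00672), and CDC25A, the phosphatase that activates the kinase, gave -1.34 (SE 0.21, adjusted p = 0.00711). RB1, which restrains E2F, was itself lower, -0.60 (SE 0.11, adjusted p = 0.0102), as was CDK2, the kinase partner of cyclin E, -0.84 (SE 0.19, adjusted p = 0.0196). TFDP2, a partner of E2F, was higher, 0.92 (SE 0.13, adjusted p = 0.00505). From WT to AM cells 5 of the list rose and 2 fell, among them CCND3 (0.96, SE 0.14, adjusted p = 0.00736), CDC25A (1.11, SE 0.21, adjusted p = 0.0139), CDK4 (0.49, SE 0.11, adjusted p = 0.0273) and TFDP1 (0.41, SE 0.10, adjusted p = 0.0323), which rose, and CDK6 (-1.55, SE 0.18, adjusted p = 0.00364) and TFDP2 (-0.84, SE 0.13, adjusted p = 0.00759), which fell. The share that rose was 20.8%, against 7.74% of all genes, and the share that fell was 8.33%, under the 9.93% of all genes. These 7 calls were lost without any WT or AM library, where calls over all genes also became few. Without either 6WP library more of the list was called, as over all genes. CDK6 was the 1 gene of the list that passed between 6WP and WT cells, -1.06 (SE 0.18, adjusted p = 0.027). It was at -1.36 and -0.85 without 6WP replicates 1 and 2. That call was lost without any WT or AM library and in a fit to only these groups. Most of the 11 calls between 6WP and AM cells were lost without either AM library, and fewer stood without either WT library. More of the list was called there without either 6WP library, as over all genes.

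Reads of some genes could not be assigned without doubt. Exons of 18 of the 43 genes overlap a gene on the opposite strand, those of 6 overlap one on the same strand, and 10 genes have named pseudogenes, while 17 have none of these (GENCODE 44). The libraries were stranded, but the strand setting of the counting is not given in the sources used here. TYMS shares 1160 bases with TYMSOS and ENOSF1, CCNE2 1633 bases with INTS8 and another gene, GINS4 1276 and MCM2 1113 bases with genes on the other strand, and POLA2 2012 bases with an unnamed gene on its own strand. DUT has 8 named pseudogenes, and PCNA, RPA2 and RRM2 have 3 each. CDC6, MCM6 and POLE2 have none of these overlaps or pseudogenes.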

How the data were processed

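RNA from 6 libraries of 22Rv1 cells, 2 in each of 3 groups, was sequenced as single end reads of 100 bases after TruSeq stranded preparation. Per the submitters' processing notes and the study's methods, the authors used STAR 2.5.3a, featureCounts 1.5.3, StringTie 1.3.3 and edgeR 3.22.3 on hg38. The deposited values are raw counts, whole numbers that the authors had not normalized, for 29804 gene symbols. The annotation and the strand setting of the counting are not given in the sources used here. No count column was left out.

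Groups were taken from the labels. With R 4.3.3 and edgeR 4.0.16, genes were filtered by filterByExpr over the 3 groups, which kept 14672, and were scaled by TMM. All 6 libraries entered 1 quasi-likelihood model with no covariates (common dispersion 0.0173), and 3 comparisons were tested, two-sided, with Benjamini-Hochberg adjustment over all genes tested and a threshold of 0.05. Standard errors (SE) were derived from the F statistic and the log2 fold change. The smallest p an exact permutation test of 2 against 2 libraries allows is 0.333, and significance therefore comes from the model alone. The pipeline was tested on simulated data in which each gene had the same spread in all 3 groups. The real 6WP libraries varied more than the others, which that simulation did not cover. CPM values are TMM normalized, those printed for TMPRSS2 included, except for the other levels of cell type markers, which are scaled to the library total. Levels per kilobase use merged exons of GENCODE 44.

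The 43 genes, the other lists and the tests were chosen with earlier results of these data known. Values in every library are given for the 25 genes with the smallest p-value in any comparison and for the gene of each role with the highest mean CPM. Other lists are described by counts, naming at most 6 genes per list and comparison by p-value. A few further genes that did not pass, or that complete a complex, are named with their values and were chosen after these were seen. The alternatives changed the scaling (DESeq2 size factors, upper quartile, or library size only), the filter (1 count in total, or a minimum of 10 counts per library) or the test (the likelihood ratio test of edgeR, or the Wald test of DESeq2 1.42.0). Others fitted only the groups compared, added the replicate number as a block, or left out each library in turn. Promoters were taken from RefSeq on GRCh38.p14, at the first start listed for each symbol. Values of single genes of the lists that the text does not name are not reported here.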

Additional observations from a re-analysis of the deposited data

How the results depend on the processing

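Under the 15 alternatives no replication gene was called higher in 6WP than in AM cells or lower in AM than in WT cells. Between 6WP and AM cells, 31 to 39 genes were called lower under the other settings and 3 to 42 with single libraries left out, and the median log2 fold change stayed between -1.36 and -0.84. CDC6, MCM6 and POLE2 were the 3 of 36 called under all of them. Between AM and WT cells the number called higher was 29 with no filter, 29 with the Wald test of DESeq2 and 30 with the likelihood ratio test. It was 41 in a fit to only these groups and 12 with library size only. Under the settings that left out no single library, 1309 to 4021 of all genes were called in either direction between 6WP and AM cells. Between AM and WT cells that number was 2311 to 6620. None of the 18 was called under all alternatives. Between 6WP and WT cells the number called lower was 2 with DESeq2 size factors, 0 with library size only, 7 with no filter, 9 with the Wald test, 9 with the likelihood ratio test, 0 in a fit to only these groups and 0 to 40 with single libraries left out, and 0 to 3 were called higher. The median there was between -0.71 and -0.18 with single libraries left out. Leaving out a 6WP library leaves the spread to be estimated from the WT and AM libraries, which vary less.

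The labels tie same-numbered libraries of different groups by nothing but the number. Their deviations from the group means had correlations across genes of 0.04 (WT and AM), 0.09 (WT and 6WP) and -0.02 (AM and 6WP). These values, from 2 libraries a group, cannot show whether such libraries shared a culture or batch. With the replicate number as a replicate block, 4 genes were called lower in 6WP than in WT cells, where 393 of all genes were called in either direction. In that fit 37 were lower in 6WP than in AM cells and 23 higher in AM than in WT cells. Over all genes, calls in either direction were within 1309 to 4021 (6WP against AM) and 2311 to 6620 (AM against WT).

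Without 6WP replicate 2 the log2 fold change of 6WP against WT became positive in 14 of the 43 genes. With single libraries left out it ranged from -1.18 to 0.38 for CDC45, from -0.58 to 0.13 for POLA2, from -0.42 to 0.0024 for RPA2, from -0.72 to 0.15 for TYMS and from -0.71 to 0.22 for E2F1. Over all genes tested, 440 were called between 6WP and WT cells, but 894 with no filter, 1052 with the Wald test, 1492 with the likelihood ratio test and 96 in a fit to only these groups. Between 6WP and AM cells 3131 were called, and 1309 in such a fit, and between AM and WT cells 2593 and 6620. With single libraries left out these counts ran from 0 (without either WT library) to 3870 between 6WP and WT, from 116 to 6807 between 6WP and AM, and from 67 to 6654 between AM and WT cells, with the highest in each without a 6WP library. With 2 libraries a group, differences of the size of those between 6WP and WT cells did not pass for most genes, and a p that misses the threshold does not show equal levels.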
